A study of Mus musculus with 6 samples.

Results

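The genes described here make up the signalling cascade of the B cell receptor: the chains that carry the signal into the cell, the kinases and adaptors behind them, the PI3K, protein kinase C and Ras branches, the calcium and NFAT branch, and the phosphatases and ligases that restrain them. They were taken by gene symbol from a list of 35 and not by their measured values. Of these, 33 are measured here among 19938 genes, each at its only probeset with a single symbol. Lyn and Itpr1 are not analysed here. B cells were pulled from mouse spleen through B220 and read on Affymetrix Mouse Gene 1.0 ST arrays, 1 array for each mouse. The p80HT group holds 3 transgenic mice that carried M-protein, a monoclonal immunoglobulin, in their serum. The WT group holds 3 wild-type littermates, and all mice were 1 year old on a C57BL/6J x SJL/J background. p80HT is a shortened human NF-κB2 protein first found in lymphoma. Its transgene is driven by an H-2Kb promoter with an immunoglobulin μ enhancer in T as well as B lymphocytes. The comparison asks how the receptor's signalling genes differ in B cells of M-protein-positive p80HT mice, of which it is not known whether they would have developed plasma cell tumors.

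The B cell receptor is a membrane immunoglobulin that cannot signal by itself. Its partners CD79A and CD79B carry paired tyrosines that Src-family kinases phosphorylate once antigen binds, and the kinase SYK docks there. SYK, BTK and the adaptor BLNK then bring phospholipase Cγ2 to the membrane, whose products open calcium stores and switch on protein kinase C and RASGRP3. Calcium in turn releases NFAT into the nucleus, and PI3K feeds AKT. Phosphatases such as SHP-1 and SHIP-1 and ubiquitin ligases of the CBL family hold the cascade in check.

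The promoters of 4 members are shown because Cd79a encodes the receptor's own signalling chain, and because Btk, Rasgrp3 and Vav3 had the smallest p among the members that were lower in p80HT B cells once p80HT replicate 3 was left out. Each line gives 250 bases before the transcription start in RefSeq on GRCm38.p6, 5′ to 3′. Where RefSeq has several starts, as for Rasgrp3 (2) and Vav3 (3), the most upstream is printed. Capitals mark any match, on either strand, to 5 motifs: GGG and CC parted by any 5 bases (κB-type, the family bound by NF-κB proteins), ATGCAAAT (octamer), GAGGAA (the core bound by PU.1), TCCC and GGGA parted by any 2 bases (EBF-type) and CAGCTG (an E box). Matches that overlap run together.
Cd79a (chr7:24897247-24897496, plus strand): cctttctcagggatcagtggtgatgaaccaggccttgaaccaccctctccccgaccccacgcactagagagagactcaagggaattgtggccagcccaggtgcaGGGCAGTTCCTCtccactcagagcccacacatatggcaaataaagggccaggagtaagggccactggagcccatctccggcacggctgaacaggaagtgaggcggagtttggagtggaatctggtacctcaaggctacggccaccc
Btk (chrX:134583141-134583390, minus strand): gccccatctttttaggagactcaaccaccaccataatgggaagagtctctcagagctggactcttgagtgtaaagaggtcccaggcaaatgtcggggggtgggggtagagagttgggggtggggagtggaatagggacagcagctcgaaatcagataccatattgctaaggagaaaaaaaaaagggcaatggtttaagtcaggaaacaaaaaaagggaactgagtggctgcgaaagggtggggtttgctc
Rasgrp3 (chr17:75435655-75435904, plus strand): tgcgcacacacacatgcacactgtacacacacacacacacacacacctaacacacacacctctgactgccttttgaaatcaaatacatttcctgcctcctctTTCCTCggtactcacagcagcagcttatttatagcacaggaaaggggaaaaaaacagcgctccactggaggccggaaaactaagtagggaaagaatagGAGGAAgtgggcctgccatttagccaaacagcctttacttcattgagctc
Vav3 (chr3:109340433-109340682, plus strand): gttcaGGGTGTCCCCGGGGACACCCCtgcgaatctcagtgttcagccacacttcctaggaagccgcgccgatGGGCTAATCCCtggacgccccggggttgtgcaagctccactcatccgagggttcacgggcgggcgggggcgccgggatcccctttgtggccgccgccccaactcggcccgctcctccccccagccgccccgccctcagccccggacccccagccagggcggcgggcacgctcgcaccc
In Cd79a a κB-type match, GGGCAGTTCC, begins 146 bases before the start and shares bases with a PU.1-type match. The printed Vav3 window holds 5 κB-type matches, several on the same letters, and the Btk window holds none of the 5 motifs. The windows of the other Vav3 and Rasgrp3 starts, which are not printed, hold none of the 5 motifs either. A match to so loose a pattern as the κB type is common. It occurs in 45.8% of the 32851 RefSeq windows of the same length and in 59.5% of the 42 windows of 30 members. The octamer occurs in 1.6% of all windows and in 3 of the 42, those of Blnk, Orai1 and Prkcb. The PU.1-type core occurs in 23.3% of all windows and 31.0% of the members', the EBF type in 0.779% and 2.38%, and the E box in 13.0% and 11.9%. These are counts of letters in a window and show no binding.

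The arrays carry the label B cell, and the 2 brightest of 11 B cell genes that are not members were bright on all of them. Cd74, the invariant chain of MHC class II, lay between 13.71 and 14.06 (log2 signal) over the 6 arrays, and Cd37, a tetraspanin of B cells, between 12.05 and 13.23. The array of p80HT replicate 3 differs from the rest. It correlates over all genes with the other 5 arrays at 0.914 to 0.925, where these correlate with each other at 0.981 or more. On it 9 of 9 gland genes, 9 of 9 stromal genes and 13 of 14 T cell genes are higher than on any other array. That holds for 27.8% of all genes. Of the 11 B cell genes 10 are lower there than on any other array, as are 48% of all genes. Cr2 and Fcer2a, which are among these 10, read 9.15 and 8.93 on it, against WT means of 12.87 and 12.35. The members' differences below are therefore given on all 6 arrays and on the 5 arrays without this one.

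No member of the cascade passed the study's threshold in p80HT B cells, which asks for at least 1.5-fold and an unadjusted p under 0.01. With all 6 arrays limma called 0 of 33 members, where it called 2.19% of all 19938 genes. On the 5 arrays without p80HT replicate 3 it called 0 of 33, where it called 3.47% of all genes. After Benjamini-Hochberg adjustment limma again called no member at a level of 0.05, with 0.0552% of all genes called on 6 arrays and 4.67% on 5. The methods' analysis of variance gave 0 members in both comparisons too. At an unadjusted p under 0.05, 7 members were lower and 0 higher with all 6 arrays, and 8 were lower and 1 higher without p80HT replicate 3. These shares stand beside 10.2% and 21.6% of all genes.

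The differences leaned one way without reaching the threshold. With all 6 arrays 30 of 33 members had a lower mean in p80HT, and their median log2 difference (p80HT minus WT) was -0.29 against -0.02 for all genes. With p80HT replicate 3 left out, 26 of 33 were lower and the median was -0.16 against 0.04. When each array was instead centred on the mean of its B cell markers the signs turned, with a median of 0.43 for the members and 0.71 for all genes on 6 arrays, and 0.16 and 0.36 on 5. Such centring shifts members and all genes alike, so it cannot alter the gap between their medians. After quantile normalization the medians were -0.21 for the members and -0.03 for all genes on 6 arrays, and -0.06 and -0.0014 on 5. On leaving out p80HT replicate 2 as well as 3 they were -0.07 and 0.02. For 15 of 33 members (45.5%) every p80HT array lay below every WT array, where 11.9% of all genes did so on 6 arrays and 20.5% on 5. For 0 members did every p80HT array lie above every WT array on 6 arrays, against 8.86% of all genes. With 5 arrays this held for 4 members, Blk, Itpr2, Nfatc1 and Cblb (12.1%), against 19.7% of all genes. The 15 members that lay below are the same with and without p80HT replicate 3. Centred on the mean of the B cell markers, 0 of 33 lay below on 6 arrays, where only 0.351% of all genes did.

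**Figure D1:**
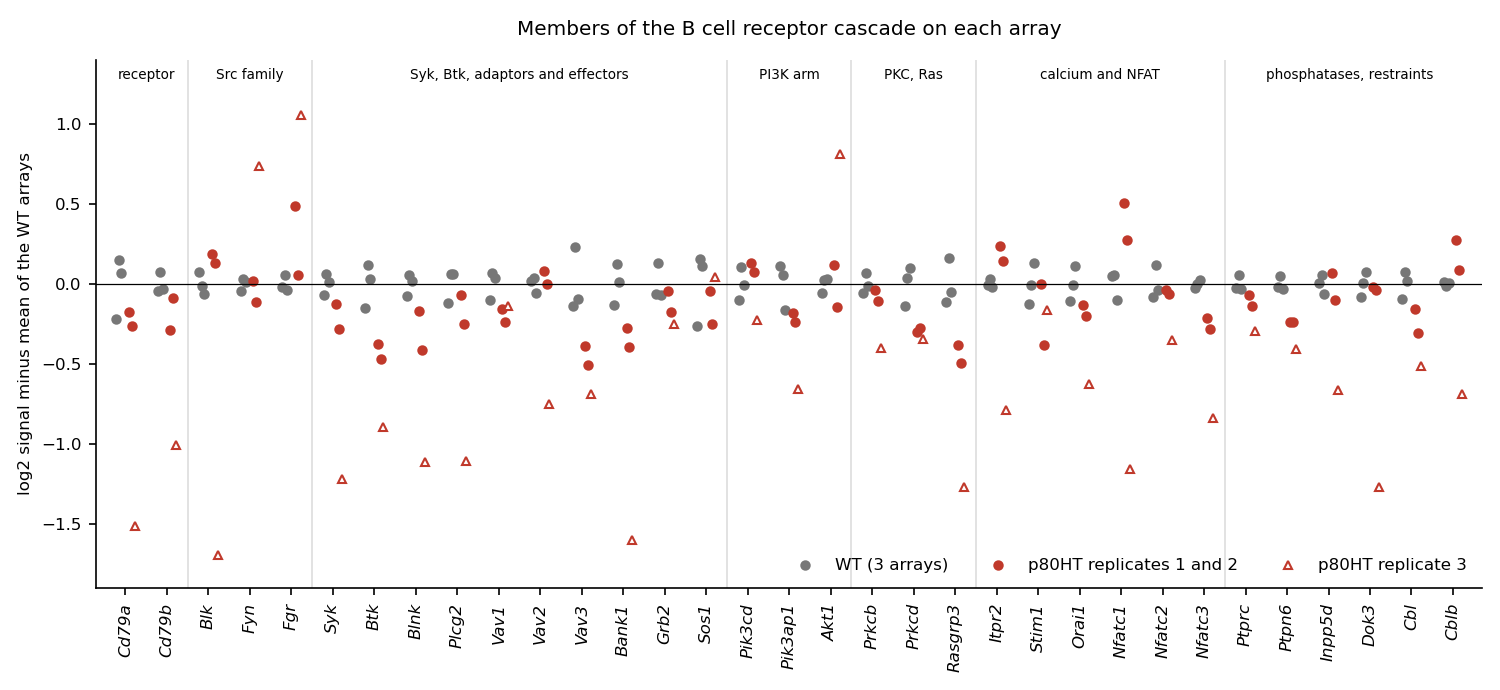
Log2 signal of the 33 measured members on each array (vertical axis, minus the mean of the 3 WT arrays), grouped by role along the horizontal axis, with 1 point per mouse. The open triangle, p80HT replicate 3, is the lowest of the 6 arrays for 27 members and the highest for Fgr, Fyn and Akt1.

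Both receptor chains were lowest on p80HT replicate 3, and neither passed the threshold. Cd79a, which encodes the chain also called Igα, read 12.10, 12.47 and 12.39 (log2 signal) on the WT arrays and 12.15, 12.06 and 10.81 on the p80HT arrays. Its WT and p80HT levels overlapped, and the log2 difference of -0.65 ± 0.35 (SE; limma adjusted p = 0.576) shrank to -0.22 ± 0.13 without p80HT replicate 3. Cd79b, its partner Igβ, read 12.57, 12.69 and 12.58 on WT arrays and 12.32, 12.52 and 11.60 on p80HT arrays. All 3 p80HT levels of Cd79b lay below the WT levels, by a log2 difference of -0.46 ± 0.24 with all arrays and -0.19 ± 0.11 without p80HT replicate 3.

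The Src-family kinases did not move together. Blk, a kinase found chiefly in B cells, read 11.81, 11.72 and 11.67 (log2 signal) on WT arrays and 11.92, 11.86 and 10.04 on p80HT arrays. Replicates 1 and 2 lay above all WT arrays and p80HT replicate 3 far below, so the log2 difference was -0.46 ± 0.47 with all arrays and 0.16 ± 0.10 without that one. Fgr, a kinase of myeloid cells as well as B cells, read 9.54, 9.62 and 9.52 on WT arrays and 10.05, 9.61 and 10.62 on p80HT arrays. Its log2 difference of 0.53 ± 0.24 was the highest of any member on 6 arrays (limma adjusted p = 0.517), and p80HT replicate 2 lay within the WT range. Without that array it reached 0.77 and passed the study's threshold, the only member to do so when any 1 array was left out. Fyn, used by T cells as well as B cells, was at 10.35 to 10.43 in WT, at 10.41 and 10.29 in p80HT replicates 1 and 2 and at 11.13 in p80HT replicate 3 (a log2 difference of 0.21, or -0.05 on 5 arrays).

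Of the 10 genes for SYK, BTK and their adaptors and effectors, none passed, and all 10 had a negative log2 difference on 6 arrays. Btk, whose loss stops human B cell development, read 10.68, 10.95 and 10.86 (log2 signal) on WT arrays and 10.46, 10.36 and 9.94 on p80HT arrays. The groups did not overlap, and the log2 difference was -0.58 ± 0.17 (limma adjusted p = 0.342). It was -0.42 ± 0.12 when p80HT replicate 3 was left out (adjusted p = 0.0730). Vav3, an exchange factor of the Vav family, read 9.03, 9.40 and 9.08 on WT arrays and 8.78, 8.66 and 8.48 on p80HT arrays. It too was lower on all p80HT arrays, by a log2 difference of -0.53 ± 0.15 (adjusted p = 0.339), or -0.45 ± 0.13 on 5 arrays (adjusted p = 0.0901). With each array centred on its median over all genes, Btk (-0.67) and Vav3 (-0.62) passed the study's threshold on 6 arrays.

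Syk, the kinase that docks on the receptor tails, read 12.16, 12.29 and 12.24 (log2 signal) in WT and 12.10, 11.95 and 11.02 in p80HT. Its log2 difference was -0.54 ± 0.28, and -0.21 ± 0.11 without p80HT replicate 3. The adaptor gene Blnk read 11.99, 12.12 and 12.08 against 11.89, 11.65 and 10.95, a log2 difference of -0.56 ± 0.24 that narrowed to -0.29 ± 0.11. Bank1, a scaffold that links the receptor to calcium release, had the lowest log2 difference of all members on 6 arrays, at -0.76 ± 0.34 (adjusted p = 0.508). It read 12.84, 13.09 and 12.98 in WT and 12.70, 12.58 and 11.37 in p80HT, and without p80HT replicate 3 its log2 difference was -0.33 ± 0.12. In Syk, Blnk and Bank1 every p80HT array lay below every WT array, and p80HT replicate 3 lay lowest by a wide margin. Plcg2, the phospholipase (-0.48, or -0.16 on 5 arrays), and the exchange factor gene Vav2 (-0.22, or 0.04) overlapped between groups. So did Grb2 (-0.16, or -0.11 on 5 arrays) and Sos1 (-0.08, or -0.15), which link receptors to Ras. Vav1, which T cells use as well, was lower on all p80HT arrays, by a log2 difference of -0.18 ± 0.12 (-0.19 on 5 arrays).

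In the PI3K branch Pik3cd, the catalytic subunit of leukocytes, was nearly level at a log2 difference of -0.01 ± 0.14, with an interval (95%) that stayed inside 1.5-fold either way, and at 0.10 ± 0.11 on 5 arrays. Pik3ap1, the adaptor BCAP that brings PI3K to the receptor, read 12.34, 12.28 and 12.06 (log2 signal) in WT and 12.04, 11.99 and 11.57 in p80HT, lower on all p80HT arrays by a log2 difference of -0.36 ± 0.17 (-0.21 on 5 arrays). Akt1 was at 10.31 to 10.39 in WT, 10.48 and 10.22 in p80HT replicates 1 and 2, and 11.17 in p80HT replicate 3. Its log2 difference of 0.26 on 6 arrays was -0.01 without that array.

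Of the activators of protein kinase C and Ras, Rasgrp3, the exchange factor that diacylglycerol recruits to switch on Ras in B cells, read 12.05, 12.33 and 12.12 (log2 signal) in WT and 11.79, 11.67 and 10.90 in p80HT. The groups did not overlap. Its log2 difference was -0.71 ± 0.24 (limma adjusted p = 0.402). Leaving out p80HT replicate 3 made it -0.44 ± 0.12 (adjusted p = 0.0709), the lowest adjusted p of any member. Prkcd, a kinase that limits B cell activation, read 10.91, 11.08 and 11.14 against 10.74, 10.77 and 10.70. Here p80HT replicate 3 sat with its group, and the log2 difference was -0.31 ± 0.12 with it and -0.29 ± 0.11 without it. Prkcb, the isoform that passes the signal on towards NF-κB, overlapped between groups (-0.18 ± 0.14, or -0.07 on 5 arrays).

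The calcium and NFAT genes split. Nfatc1, an NFAT factor induced by receptor signalling, read 11.66, 11.66 and 11.51 (log2 signal) in WT and 12.12, 11.88 and 10.46 in p80HT. Replicates 1 and 2 lay above all WT arrays and p80HT replicate 3 below them. Without that array the log2 difference was 0.39 ± 0.12 (adjusted p = 0.0941), the highest of any member in that comparison, and with it -0.13 ± 0.40. Itpr2, a calcium release channel of the endoplasmic reticulum, ran the same way, at 0.19 ± 0.10 and -0.14 ± 0.27. Nfatc3 lay between 12.26 and 12.31 in WT and between 11.45 and 12.08 in p80HT, lower on every p80HT array by a log2 difference of -0.44 ± 0.18, or -0.25 ± 0.10 without p80HT replicate 3. Orai1, the pore of the store-operated calcium channel, was also lower on every p80HT array (-0.32 ± 0.16, or -0.17 on 5 arrays). The store sensor gene Stim1 (-0.18, or -0.19 on 5 arrays) and Nfatc2 (-0.15, or -0.05) overlapped between groups, and both stayed inside 1.5-fold at the 95% interval.

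None of the 6 phosphatase and restraint genes passed. Ptpn6, which encodes SHP-1, read 11.79, 11.86 and 11.78 (log2 signal) in WT and 11.58, 11.57 and 11.40 in p80HT. It was lower on every p80HT array by a log2 difference of -0.29 ± 0.12 (limma adjusted p = 0.467), and -0.24 ± 0.10 without p80HT replicate 3. Cbl, a ubiquitin ligase (-0.33 ± 0.14, or -0.23 on 5 arrays), and Ptprc, which encodes CD45 (-0.17 ± 0.12, or -0.11), were also lower on every p80HT array. Cblb, the related ligase, read 11.97, 11.94 and 11.96 in WT and 12.23, 12.04 and 11.27 in p80HT, with replicates 1 and 2 above WT and replicate 3 below (a log2 difference of -0.11, or 0.18 on 5 arrays). Inpp5d, which encodes SHIP-1 (-0.23), and the adaptor gene Dok3 (-0.44) overlapped, and without p80HT replicate 3 stood at -0.01 and -0.03.

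The intervals give the sizes of change that the limma fit allows under the deposited scaling, and do not cover a change of scaling. Centred on the mean of the B cell markers on 5 arrays, Nfatc1 (0.71) and Fgr (0.59) lay above their upper bounds (0.65 and 0.57). With all 6 arrays, 9 of 33 members had a 95% interval within 1.5-fold of WT in either direction, and 24 had one that reached further. On 5 arrays, 28 of 33 lay within it. The other 5 were Btk, Vav3, Bank1, Rasgrp3 and Nfatc1, with bounds of -0.68, -0.74, -0.59, -0.70 and 0.65 on the log2 scale on their far sides. The median SD of a member was 0.0861 over the 3 WT arrays and 0.383 over the 3 p80HT arrays, and 0.0787 over p80HT replicates 1 and 2 alone.

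**Figure D2:**
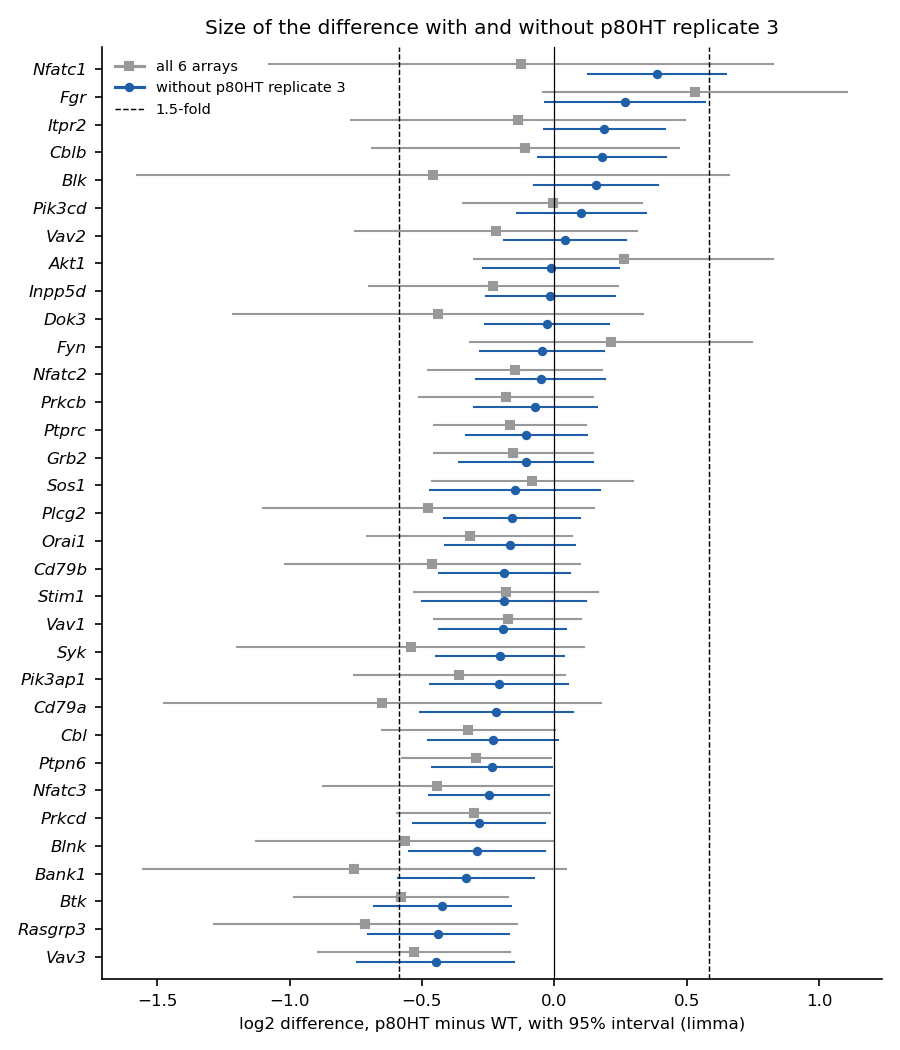
Log2 difference of each member (p80HT minus WT, horizontal axis) with its 95% interval from limma, on all 6 arrays (grey squares) and without p80HT replicate 3 (blue circles), ordered by the latter. Dashed lines mark 1.5-fold, and without p80HT replicate 3 no difference lies outside them, the lowest being Vav3 at -0.45 and the highest Nfatc1 at 0.39.

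On p80HT replicate 3 the members listed as used by B cells and not by most T cells had a lower median than those shared with T cells. Its level lay at least 1.5-fold below the WT mean for 19 of 33 members (57.6%), against 11.5% of all genes, and at least as far above it for 3, against 13.9%. It was the lowest of the 6 arrays for 27 members (81.8%), against 48% of all genes, and the highest for 3, against 27.8%. Of 13 members listed as used by B cells and not by most T cells, all 13 were lowest there. Their log2 differences from the WT mean lay between -1.69 and -0.34 (median -1.11). For 17 members that also serve the T cell receptor the range was -1.15 to 0.81 (median -0.35). Over replicates 1 and 2 the same medians were -0.21 and -0.11. The 2 lists overlapped on p80HT replicate 3, with Prkcb (-0.40) and Prkcd (-0.34) of the first above Nfatc1 (-1.15) and Nfatc3 (-0.83) of the second. Vav2 (-0.75), Itpr2 (-0.79) and Fgr (1.05) stand in neither list. The 11 B cell markers outside the cascade had a median of -1.27 on p80HT replicate 3 and -0.15 over replicates 1 and 2. In RNA of a bulk selection, fewer B cells and less of a transcript per B cell cannot be told apart.

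Genes of T cells and macrophages ran the opposite way on the same arrays. Those of neutrophils did not on p80HT replicate 3. Over replicates 1 and 2 the neutrophil median log2 difference was 0.73, and none of these genes passed. The summed signal of 14 T cell markers was 13.06 to 13.32 (log2) in WT and 13.84, 13.73 and 14.79 in p80HT replicates 1, 2 and 3. Of these, 4 rose, none fell and 10 did not pass on 6 arrays, where 2.19% of all genes passed. Without p80HT replicate 3, 10 of the T cell markers rose and none fell, where 3.47% of all genes passed. Cd3e, which encodes a CD3 chain, rose by a log2 difference of 1.74, and Cd2, which these B cells also express, stood at 0.06. The summed signal of 10 macrophage markers was 13.00 to 13.39 in WT and 13.71, 13.47 and 15.17 in p80HT. In either comparison 2 of these markers rose and none fell, beside the same 2.19% and 3.47% of all genes. The brightest macrophage markers, Lyz2 and Cd68, stood at 0.86 and 0.79 and did not pass. The summed signal of the 11 B cell markers was 16.09 to 16.28 in WT and 16.04, 15.88 and 15.16 in p80HT. The 10 neutrophil markers summed to between 12.98 and 14.92 in WT and to 15.03, 14.51 and 11.70 in p80HT. Of them 9 were lowest on p80HT replicate 3, where 48% of all genes were lowest. Of 7 platelet markers 4 were lowest there, which is near that share. The 9 gland markers summed to 10.19 to 10.40 in WT and to 10.31, 10.51 and 15.61 in p80HT. For the 9 stromal markers the sums were 10.56 to 10.91 and 10.80, 10.93 and 13.92. Of 6 red cell markers 3 rose on 6 arrays and 5 without p80HT replicate 3, where 2.19% and 3.47% of all genes passed. Fgr, Fyn and Akt1, the members that were highest on p80HT replicate 3, are used by T cells or myeloid cells as well, and the part of these cells in the members' values was not tested.

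**Figure D3:**
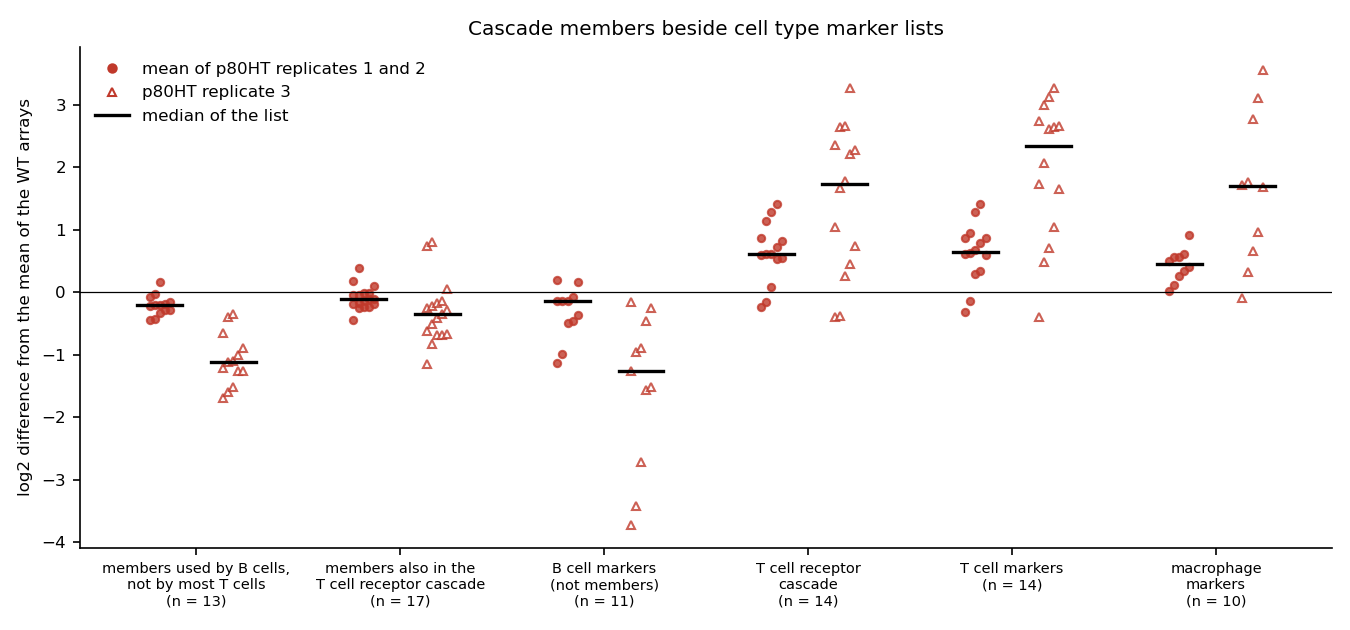
Log2 difference from the mean of the WT arrays (vertical axis) for each gene of 6 lists, for the mean of p80HT replicates 1 and 2 (filled circles) and for p80HT replicate 3 (open triangles), with black bars at the list medians. On p80HT replicate 3 the median is -1.11 for members listed as not used by most T cells, -1.27 for B cell markers and 1.72 for the T cell receptor cascade.

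Centring on the B cell markers shifts every gene of an array by the same amount. With the mean of the 11 markers no member passed the study's threshold on 6 arrays, where 486 of all genes did. On 5 arrays the same scaling put Nfatc1 at a log2 difference of 0.71 and Fgr at 0.59, both past the threshold, where 1916 of all genes were. The mean rests in part on Cr2, the complement receptor CD21 (-1.99), and Fcer2a, the IgE receptor CD23 (-1.80). Centred on the median of the markers instead, a choice made after the values were seen, the members' median was 0.30 on 6 arrays and 0.01 without p80HT replicate 3, and no member passed in either.

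Some other genes of the pathway passed the threshold. Of 75 measured genes that work with the cascade and are not members, 3 rose, 3 fell and 69 did not pass on 6 arrays, where 2.19% of all genes passed. On 5 arrays again 3 rose and 3 fell, where 3.47% of all genes passed. Their median log2 difference was -0.14, or -0.15 without p80HT replicate 3. None passed an adjusted p under 0.05 on 6 arrays (limma), where 0 did so of the members too, and 9 did without p80HT replicate 3, 4 higher and 5 lower, where 4.67% of all genes did.

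Ptpn22, a phosphatase that restrains Src-family kinases in T and B cells, read 9.88, 10.36 and 10.17 (log2 signal) in WT and 11.42, 11.13 and 10.88 in p80HT. It rose by a log2 difference of 1.01 ± 0.19 (limma adjusted p = 0.166), and by 1.14 without p80HT replicate 3. Pik3cb, a catalytic subunit of PI3K, rose as well, from 9.10, 9.06 and 9.02 in WT to 9.89, 9.58 and 10.12 (0.80 ± 0.16). Prkch, a protein kinase C isoform also used by T cells, rose from 8.16, 8.43 and 8.40 to 9.44, 9.27 and 10.77, by 1.5 ± 0.38 (1.03 on 5 arrays). In all 3 genes every p80HT array lay above every WT array. Pik3cb (0.67 on 5 arrays) lost its call there without p80HT replicate 1 (0.52). The methods' analysis of variance did not call Prkch on 6 arrays, nor Ptpn22 and Pik3cb on 5. On 6 arrays Prkch lost its call without WT replicate 1 (1.41), 2 (1.55) or 3 (1.53). It also lost its call there with the mean of its probesets (1.36).

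Rasgrp2, an exchange factor that acts on Rap1, fell from 10.48, 10.86 and 10.95 (log2 signal) in WT to 9.74, 9.75 and 8.72 in p80HT, a log2 difference of -1.36 ± 0.30. Dusp2, a phosphatase that switches off MAP kinases, fell from 10.77, 10.97 and 10.99 to 10.03, 10.01 and 9.11, a log2 difference of -1.19 ± 0.26. Ppp3ca, a catalytic subunit of the phosphatase calcineurin that activates NFAT, fell from 11.46, 11.58 and 11.49 to 11.09, 10.92 and 10.31 (-0.74 ± 0.21). Without p80HT replicate 3, Rasgrp2 (-1.02) and Dusp2 (-0.89) kept their calls and Ppp3ca did not (-0.51). Ppp3ca missed only the 1.5-fold part there, and its limma adjusted p was 0.0314, against 0.334 on 6 arrays. In the methods' analysis of variance none of the 3 passed on 6 arrays, and Rasgrp2 did not pass on 5. Rasgrp2 lost its call without WT replicate 2 (-1.31) or 3 (-1.27), Dusp2 without WT replicate 2 (-1.16), and Ppp3ca without WT replicate 1 (-0.76), 2 (-0.70) or 3 (-0.75) or p80HT replicate 2 (-0.81). Centred on the B cell markers, none of the 3 kept its call on 6 arrays (-0.63, -0.46 and -0.01). Cr2, the complement receptor, read 12.68, 12.98 and 12.95 in WT and 11.93, 11.55 and 9.15 in p80HT. It did not pass on 6 arrays (-1.99 ± 0.66) and fell without p80HT replicate 3 (-1.13 ± 0.14, adjusted p = 0.0021). It also passed without p80HT replicate 1 (-2.52).

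**Figure D4:**
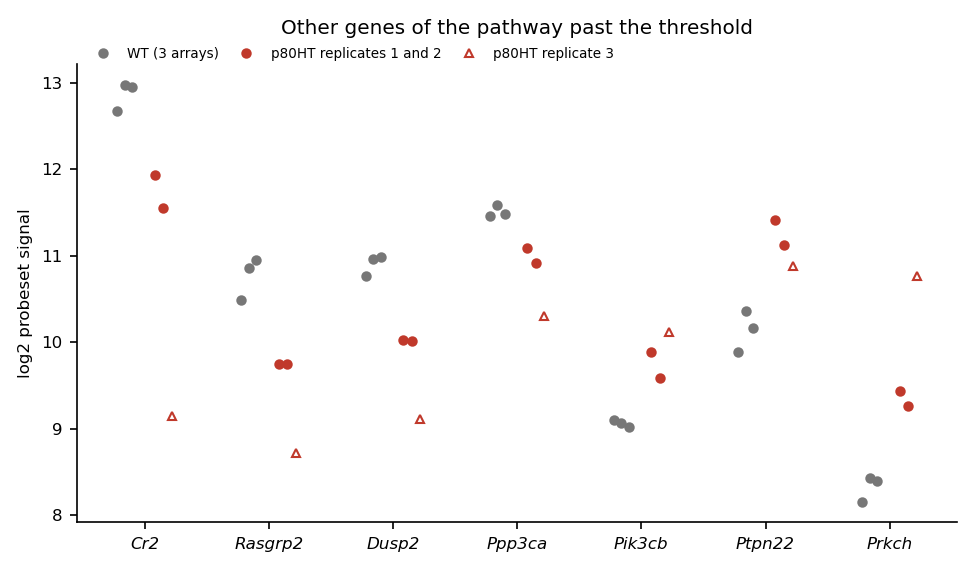
Log2 signal (vertical axis) of the 7 pathway genes outside the cascade list that passed the study's threshold with all 6 arrays or without p80HT replicate 3, with 1 point per mouse. The p80HT arrays lie below all WT arrays for Cr2, Rasgrp2, Dusp2 and Ppp3ca and above them for Pik3cb, Ptpn22 and Prkch.

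The parallel cascade of the T cell receptor is given for contrast. Of 14 measured genes, of which Ptpn22, Prkcq and Rasgrp1 also stand among the 75 above, 5 rose, none fell and 9 did not pass on 6 arrays, with a median log2 difference of 0.98. On 5 arrays 9 rose and none fell, with a median of 0.61. Of all genes 2.19% passed on 6 arrays and 3.47% on 5. The brightest of the 14, Rasgrp1 and Grap2, did not pass, at -0.23 and -0.29. The difference between the cascades was not tested.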

How the data were processed

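RNA of B220-selected splenic B cells was read on 1 Affymetrix Mouse Gene 1.0 ST array per mouse, 3 p80HT and 3 WT with none pooled. The table deposited by the authors holds 1 log2 signal per probeset, from RMA run in Partek. RMA usually subtracts background, equalizes the arrays' quantiles and summarises probes across arrays, so each level depends on the other arrays. Versions and settings are not given in the sources used here. Arrays have no read depth, and the number of mice limits the precision. Of 28853 probesets, 21789 carry 1 gene symbol in the platform annotation, and each of 19938 genes was read at the brightest by mean over all 6 arrays. Levels of different genes are not compared.

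Groups were compared on the whole table with limma 3.58.1 in R 4.3.3 (lmFit, eBayes, 2-sided, no block), on 6 arrays and on 5 without p80HT replicate 3. A gene rose or fell at 1.5-fold or more with p under 0.01, as in the methods. SEs and 95% intervals are limma's, and p-values were adjusted over all genes. The members and lists were chosen with earlier results of these data known, so lists are described by counts and medians beside those of all genes. Genes named are all measured members, other pathway genes past the threshold in either comparison, and the 2 brightest of a marker list where one is named. Cr2 and Fcer2a as B cell markers and Prkcq were chosen after their values were seen. Whether equal replicate numbers mark paired animals is not known. Alternatives were leaving out each array, the replicate block, the methods' analysis of variance, an intensity trend, array weights, quantile normalization, 3 centrings (1 chosen after seeing the data), a filter, the mean of probesets and an adjusted threshold. The fit was tested on simulated data. Promoter windows came from RefSeq (GRCm38.p6), for 30 of the 33 measured members. Python 3.11.15, pandas 2.3.3 and matplotlib 3.10.9 prepared tables and figures.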

Additional observations from a re-analysis of the deposited data

How the results depend on the processing

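Members that passed the study's threshold under an alternative were Fgr without p80HT replicate 2, Btk and Vav3 with median centring on 6 arrays, and Fgr and Nfatc1 with centring on the B cell markers on 5. They numbered 0 to 1 when each array was left out, 2 with median centring and, on 5 arrays, 2 with B cell marker centring. The median difference of the 33 members turned to 0.43 and, on 5 arrays, 0.16 with that centring, and to 0.30 and 0.01 when the markers' median was used (0.0067 unrounded). A change of sign between values that do not pass was not counted as a reversal. Such changes of sign numbered 74 on 6 arrays, of which the B cell marker centrings gave 29 and 27, and 51 on 5. On 5 arrays the median was -0.06 after quantile normalization and -0.21 to -0.07 on leaving out a further array (-0.07 without p80HT replicate 2). The cause of these changes was not tested. Those centrings were the alternatives that moved the median of all genes by over 0.1, to 0.71 and 0.57 on 6 arrays and 0.36 and 0.20 on 5.

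Members with every p80HT array below every WT array numbered 15 to 21 when each array was left out, against 13.8% to 20.5% of all genes. Under either marker centring they numbered 0, against 0.351% (markers' mean) and 0.572% (markers' median) of all genes. On 5 arrays they numbered 15 to 23 on leaving out a further array (23 without p80HT replicate 1), against 23.3% to 30.1% of all genes. With the markers' mean they numbered 2 and with the markers' median 6, against 2.81% and 8.93% of all genes. Members with every p80HT array above numbered 0 to 4 on leaving out an array, against 10.3% to 19.7% of all genes. They numbered 1 without WT replicate 2, 2 without p80HT replicate 2 and 4 without p80HT replicate 3. After quantile normalization they numbered 2, against 8.74% of all genes. With the markers' mean 20 lay above and with the markers' median 13, against 63.1% and 51.1% of all genes. On 5 arrays they numbered 4 to 9 on leaving out a further array (9 without p80HT replicate 2), against 22.2% to 37.9% of all genes. They numbered 8 after quantile normalization and 2 with median centring, against 17.1% and 12% of all genes. Under the marker centrings 22 and 14 lay above, against 63.5% and 36% of all genes. Of the other pathway genes, 2 to 8 passed when each array was left out (2 without WT replicate 2, 3 without WT replicate 3), 2 in the methods' analysis of variance and 0 at an adjusted p under 0.05. On 5 arrays 3 passed in the analysis of variance and 12 with B cell marker centring. The total over all genes was 436, and 900 with array weights, 206 without WT replicate 2, 220 without WT replicate 3, 691 without p80HT replicate 3 and 196 in the analysis of variance.

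With the replicate number as a block, 0 members passed in both comparisons, and 7 other pathway genes in each. The labels give same-numbered mice only a shared number, and their deviations from the group means correlated at 0.074, -0.241 and 0.069. With 3 mice in each group these values cannot decide whether the numbers pair animals. Treating the numbers as a pairing moved the total over all genes from 436 to 567, and not every mouse correlated best with its own number.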

Other observations

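Antigen receptors and cell handling both induce many immediate early genes. Of these genes 11 of 11 were lowest on p80HT replicate 3, against 48% of all genes. Dusp1, a phosphatase of MAP kinases, read 13.38, 13.50 and 13.64 (log2 signal) in WT and 13.73, 13.57 and 11.11 in p80HT. Nr4a1, an orphan nuclear receptor that antigen receptor signals induce, read 13.16, 13.01 and 13.11 in WT and 13.04, 12.72 and 9.34 in p80HT. On both genes p80HT replicates 1 and 2 lay near WT. None of the 11 rose or fell on 6 arrays. Without p80HT replicate 3 their median log2 difference was 0.01, and 1 rose (Atf3, 0.66) and 1 fell (Junb, -0.77), both singled out after their values were seen.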
